A study of Homo sapiens with 7 samples.

Results

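The comparison of the library labelled siPAPγ with the library labelled siCtrl is described here, which are 2 of the 7 libraries of the series. Both were made by 3′READS, a sequencing method that reads RNAs from the end that carries the poly(A) tail, from total RNA of HEK293 cells, an established line derived from human embryonic kidney. Cells of siCtrl received a control siRNA and cells of siPAPγ an siRNA against PAPγ (gene PAPOLG) in a transient knockdown (KD). The study reported from immunoblots of protein that the KDs were effective, and replicate cell samples gave the RNA that was sequenced. Protein was not analysed here. All sense rows of the deposited table were used, that is, poly(A) sites (PASs) on the strand of their gene: 51882 PASs in 15468 genes. Of these genes, 10163 had more than 50 PASS reads (poly(A) site supporting reads, which end in As that the genome does not encode) summed over both libraries and were tested. The same table holds siPAPα and siStar-PAP, which serve below as further libraries, and the double KD of PAPα and PAPγ in another table shares the siCtrl library.

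PAPγ is a canonical nuclear poly(A) polymerase, closely related to PAPα. After an RNA is cleaved at a PAS, such enzymes add the poly(A) tail that the RNA needs for export, stability and translation. Cleavage is directed by a hexamer upstream of the site, most often AAUAAA or AUUAAA, and by U- and GU-rich sequence downstream of it. Where a gene has several PASs, the choice among them sets the length of the 3′UTR or, for a PAS in an intron, truncates the coding sequence.

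Reads of PAPOLG were few and were not lower than in siCtrl in the library labelled siPAPγ. They numbered 5 in siCtrl and 15 in the library labelled siPAPγ, or 0.621 and 1.73 RPM (reads over the sense total of the library, times 1000000), which is 2.79-fold higher (95% counting interval 0.963 to 9.80). siPAPα had 36 PAPOLG reads, siStar-PAP 28 and the double KD 6, so that only the double KD stood near siCtrl. PAPOLG has 3 PASs in the table, on chromosome 2 (hg19, plus strand), and all lie in its 3′-most exon. The first, at 61024814, had 0 reads in both libraries, where a count of 0 allows up to 3 reads. At 61025603, siCtrl had 2 reads and the library labelled siPAPγ 14, and at 61029219 they had 3 and 1. The label siPAPγ could therefore not be checked from RNA of the targeted gene at this depth, and each direction given below is that of the library so labelled. This does not bear on the immunoblots of the study. The other nuclear PAPs differed little. PAPOLA, the gene of PAPα, had 71 reads in siCtrl and 66 in the library labelled siPAPγ (0.863-fold, 0.608 to 1.23). TUT1, the gene of Star-PAP, had 83 in each (0.929-fold, 0.677 to 1.28).

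There was 1 library on each side, so no difference below has a replicate check and no p-value is given. Intervals are exact (Clopper-Pearson) for the counts as deposited and cover counting error only. They do not hold the spread between libraries, and reads copied in amplification were not removed here. siCtrl had 8057201 sense reads, the library labelled siPAPγ 8674435, siPAPα 16191098 and siStar-PAP 11120874. The library that stood apart most was siCtrl. Among 10517 genes with at least 100 reads over the 4 libraries, siCtrl was more than 2-fold above each of the 3 others in 678 and below each in 312. For siStar-PAP these numbers were 32 and 707, and for siPAPα 77 and 258. The library labelled siPAPγ was above each of the others in 48 genes (0.456%) and below each in 104 (0.989%). Every ratio to siCtrl carries what is particular to that library, and values of siPAPα and siStar-PAP are therefore given beside many of the genes and classes below and, in the plot of list medians, for the lists. Of the HEK293 markers VIM, KRT8, KRT18, NEFL, NEFM and INA, all 6 had reads in both libraries. Their summed level was 4098 RPM in siCtrl, 1620.3 in the library labelled siPAPγ, 2626 in siPAPα and 3657 in siStar-PAP, most of it KRT18. Of the markers of other cell types (PTPRC, CD3E, PECAM1, CDH5, ALB, COL1A1, HBB and UMOD), COL1A1 alone is listed in the table, with 5 reads in siCtrl and 4 in the library labelled siPAPγ.

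The PASs on which the results turn are shown here with 30 of the 40 bases of RNA before the site, 5′ to 3′, read from GRCh37, the assembly of hg19. Capitals mark the hexamer, searched on the sense strand in those 40 bases as AAUAAA, then AUUAAA, then 10 rarer variants. These were AGUAAA with UAUAAA, followed by CAUAAA with GAUAAA, followed by AAUAUA with AAUACA, followed by AAUAGA with AAUGAA, and lastly ACUAAA with AAGAAA. A window can hold several of these, and the first found in this order was taken. Of the 11803 tested PASs of 3′-most exons, 59.5% held AAUAAA there and 17.0% AUUAAA only. All 51882 sense PASs, used or not, held them in 46.3% and 16.1%. The main PAS of PAPOLG in the library labelled siPAPγ has none of the hexamers, whereas the last has AAUAAA.
PAPOLG middle PAS, chr2:61025574-61025603 (+): aucuuuucaaagagaaacguuuaaaaccuu
PAPOLG last PAS, chr2:61029188-61029217 (+): aauaaguaaucaAAUAAAauugcuuugaua
The next pairs are PASs whose share of the reads of the gene fell (first-named) or rose (second) in the library labelled siPAPγ.
NPM1 3′-most exon, chr5:170837868-170837897 (+): acucaguauuuuAAUAAAguagcacgguuu
NPM1 intron, chr5:170833698-170833727 (+): ccuuagcugcucAAUAAAuauuugaaugca
ADCY3 first PAS, chr2:25042149-25042178 (-): aaucuucuguuaAAUACAcuuuccgauauu
ADCY3 last PAS, chr2:25042045-25042074 (-): caagacuguuuuAUUAAAagcuuuauucaa
CKS1B last PAS, chr1:154953575-154953604 (+): accuguauugcuAAUAAAgauauuggaaca
CKS1B first PAS, chr1:154951688-154951717 (+): uuaaaagccuugAUUAAAgaggaaguuuuu
RAB31 intron, chr18:9716319-9716348 (+): aucauguauaauAUUAAAauacucuuuccc
RAB31 last PAS, chr18:9862517-9862546 (+): cugauucauacuAAUAAAuauuuucaguuu
NID1 intron, chr1:236209359-236209388 (-): gugcuuggguucAAUAAAuguuuguuaaac
NID1 last PAS, chr1:236139137-236139166 (-): aauaguguggaaAAUAAAcuuuuuuuaaaa

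More genes were lower than higher in the library labelled siPAPγ against siCtrl, and the excess depended on the scaling. Of the 10163 tested genes, 1350 were lower by more than 2-fold (13.3%) and 938 higher (9.23%), and the median log2 ratio was −0.06, with quartiles at −0.61 and 0.45. With the PASS read totals given by the study as the depth, which lower every log2 ratio by 0.27, the numbers were 2105 and 576. With TMM factors they were 1161 and 1109, at a shift of 0.10, and with DESeq2 size factors 1121 and 1120, at a shift of 0.11. The direction turned when the mean of siPAPα and siStar-PAP stood in place of siCtrl, with 221 genes lower and 664 higher. Of the 1350 lower genes, 183 (13.6%) were also more than 2-fold below siPAPα and 182 (13.5%) below siStar-PAP. Of the 938 higher genes, 111 (11.8%) were also more than 2-fold above siPAPα and 346 (36.9%) above siStar-PAP. Over all tested genes the median log2 ratio of the library labelled siPAPγ was 0.10 to siPAPα and 0.34 to siStar-PAP. This shift of all genes favours higher over lower calls, and the shares over all tested genes were not counted. It also bears on the 221 lower and 664 higher genes, for which no other scaling was used. The filter on reads counts only siCtrl and the library labelled siPAPγ, also where another library is the reference. It lets in genes that are high in the library labelled siPAPγ but not those high in the reference alone. This favours higher ratios to siPAPα and siStar-PAP, here and for the lists below. These counts share the library labelled siPAPγ and are given as a description. The siCtrl library of batch 2, made with another protocol, is in none of these ratios. Against it, the 954 lower genes with at least 20 reads there had a median log2 ratio of −0.06 in siCtrl and −1.62 in the library labelled siPAPγ. The 637 higher genes had −1.48 in siCtrl and 0.01 in the library labelled siPAPγ, and the 5899 others −0.24 and −0.30. The filter of 20 reads drops genes that are low in that library, such as DPYSL4 with 1 read there, and so leans on these medians. They rest on 1 library of another protocol, and to which library the changes belong was not tested.

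The genes with the largest fall against siCtrl were low in all 4 KD libraries. Against the siCtrl library of batch 2 they were not alike. CALCB stood at 372 RPM there, PTBP2 at 73.8, KIAA0889 at 25.1 and BRSK2 at 18.2, which is above siCtrl, whereas GSC stood at 22.9, RAP1GAP at 3.64, TMEM17 at 2.18 and DPYSL4 at 0.364, which is far below it. BRSK2, a brain-enriched kinase, had 98 reads in siCtrl and 2 in the library labelled siPAPγ, or 12.2 and 0.231 RPM, a fall of 52.8-fold (14.2 to 442). It stood at 0.741 RPM in siPAPα, 1.08 in siStar-PAP and 0.643 in the double KD. STC1, which encodes the secreted glycoprotein stanniocalcin, went from 122 reads to 7 (18.8-fold, 8.84 to 47.7), and had 0 reads in siPAPα, 15 in siStar-PAP and 0 in the double KD. CALCB, the gene of a calcitonin gene-related peptide, went from 1260 reads to 84, a fall of 16.1-fold (12.9 to 20.4). These genes were thus low in every KD library, not in the library labelled siPAPγ alone. The transcription factor genes GSC (1307 to 105 reads, 13.4-fold, 10.98 to 16.5) and ETV4 (1720 to 166, 11.2-fold, 9.51 to 13.2) were read more deeply. GSC had 162 RPM in siCtrl against 12.1 in the library labelled siPAPγ, 7.04 in siPAPα, 27.7 in siStar-PAP and 10.01 in the double KD. PTBP2, a neuronal regulator of splicing, went from 344 reads to 30 (12.3-fold, 8.49 to 18.6). RAP1GAP, a GTPase-activating protein for Rap1, went from 251 to 20. The others of the 15 largest falls were KIAA0889, DPYSL4, TNFAIP8L1, FAM198A, ABTB1, NPFFR2, MYLPF and TMEM17, with falls of 10.8-fold (TMEM17) to 20.3-fold (KIAA0889). For all 15, siCtrl was more than 2-fold above each of the 4 KD libraries.

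For most of the largest rises siCtrl was the lowest library of the 5. In the siCtrl library of batch 2, CYB5A stood at 210.2 RPM and ARMC5 at 283, but EIF3L at 7.27 and ARL2 at 1.455. CYB5A, the gene of cytochrome b5, had 7 reads in siCtrl and 150 in the library labelled siPAPγ (19.9-fold, 9.43 to 50.4). It stood at 0.869 RPM in siCtrl, 17.3 in the library labelled siPAPγ, 18.0 in siPAPα, 7.64 in siStar-PAP and 15.6 in the double KD. CS, which encodes citrate synthase, went from 15 reads to 168 (10.4-fold, 6.13 to 19.0), and ARL2, a small GTPase with a role in tubulin folding, from 25 to 371 (13.8-fold, 9.19 to 21.6). These 3 genes were higher than in siCtrl in all 4 KD libraries. ARMC5 differed between the KDs, with 16.1 RPM in siCtrl and 16.01 in siStar-PAP but 148 in the library labelled siPAPγ, 242 in siPAPα and 253 in the double KD. ERLIN1, an endoplasmic reticulum protein gene, also had these 2 libraries lowest, with 1.74 RPM in siCtrl, 1.53 in siStar-PAP, 11.8 in the library labelled siPAPγ, 7.97 in siPAPα and 6.06 in the double KD. EIF3L, which encodes a subunit of the initiation factor eIF3, went from 1588 reads to 11191 (6.55-fold, 6.21 to 6.90). Further rises were RPLP0, AGBL5, SALL2, PCDHGB5, SDCBP, AHCYL1, NR6A1 and CINP, between 6.52-fold (CINP) and 12.1-fold (RPLP0). PCDHGB5 shares a PAS with other genes of the protocadherin gamma cluster, so its reads cannot be assigned to it alone. siCtrl was the lowest of the 5 libraries for 13 of the 15 and more than 2-fold below each of the others for 12.

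**Figure D1:**
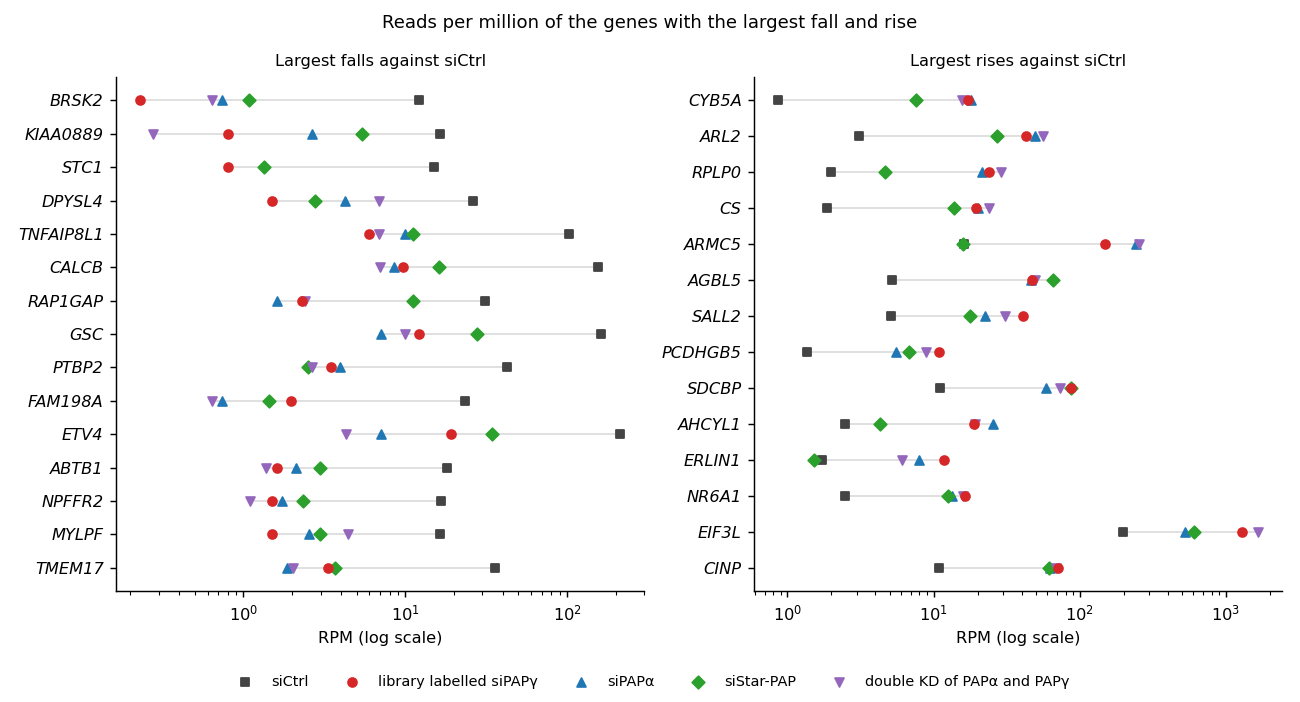
RPM on a log axis of the genes with the largest fall (left) and the largest rise (right) in the library labelled siPAPγ against siCtrl, with 1 point per library; libraries with 0 reads are not drawn. siCtrl lies apart from the other 4 libraries for most genes, as for CALCB at 156 RPM against 6.98 to 16.1.

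A smaller set separated the library labelled siPAPγ from siCtrl, siPAPα and siStar-PAP at once. The 104 genes below each of the 3 others had a median log2 ratio to siCtrl of −1.98 in the library labelled siPAPγ, −0.23 in siPAPα and −0.24 in siStar-PAP, and the choice bears on all 3 values. It was −1.04 in the double KD, in which PAPγ was targeted too, beside −0.16 over all tested genes. The 48 genes above each of the 3 others had medians of 1.39, −0.03 and −0.15 in the same libraries and 0.63 in the double KD. The double KD was not used to choose the genes, but its ratio shares the siCtrl library, and the choice favours a high siCtrl in the lower set and a low siCtrl in the higher set. The values over all genes are therefore not those of genes without a change, and the medians are given as a description.

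The lower set held some highly read genes, which are named here after their values were seen. POLR2E, a subunit shared by the nuclear RNA polymerases, had 352 RPM in siCtrl, 265 in siPAPα and 434 in siStar-PAP, but 117 in the library labelled siPAPγ (3.02-fold below siCtrl, 2.81 to 3.24) and 135 in the double KD. NDUFA5, a subunit of respiratory complex I, had 172, 235 and 220 RPM in siCtrl, siPAPα and siStar-PAP, and 57.6 in the library labelled siPAPγ and 84.1 in the double KD. GNPNAT1, an enzyme of UDP-N-acetylglucosamine synthesis, had 197, 275 and 203 RPM against 83.6 and 115 in the same order. CGA, the common alpha chain of the glycoprotein hormones, stood at 186 RPM in siCtrl and 39.4 in the library labelled siPAPγ (4.72-fold, 4.19 to 5.32), with 79.1 in siPAPα, 244 in siStar-PAP and 41.3 in the double KD. For these 4 genes the double KD was the next lowest of the 5 libraries, whereas the low place of the library labelled siPAPγ was set by the choice of genes. The 4 were picked with the double KD in view. FAM91A1, in the same set, stood at 94.1 RPM in siCtrl, 43.1 in the library labelled siPAPγ and 115.5 in the double KD. PKIB, an inhibitor of protein kinase A, had 199 reads in siCtrl and 43 in the library labelled siPAPγ (4.98-fold, 3.57 to 7.10), at 24.7, 4.96, 29.3, 40.01 and 6.52 RPM in siCtrl, the library labelled siPAPγ, siPAPα, siStar-PAP and the double KD. HMGCS1, the cholesterol synthesis enzyme that makes HMG-CoA, had 21.6, 4.50, 12.8, 17.5 and 5.05 RPM in that order.

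Genes with the largest separation by the smallest of the 3 ratios had few reads in the library labelled siPAPγ. ZBTB42, a zinc finger gene, had 35 reads in siCtrl and 3 in the library labelled siPAPγ (12.6-fold, 3.96 to 63.8), with 45 in siPAPα, 33 in siStar-PAP and 5 in the double KD. IQCD had 22 and 3 reads, with 52, 59 and 11 in the same order. For RFC4, a subunit of the clamp loader of DNA replication, 44 reads in siCtrl stood against 2 (23.7-fold, 6.18 to 202), but the double KD had 35 reads, at 3.21 RPM against 5.46 in siCtrl. DIRAS2 and SLC35E2B also were not low in the double KD, with 4.22 and 3.21 RPM. FGFBP1, a binding protein of fibroblast growth factors, had 53 and 2 reads and 0 in the double KD, TMEM184C 26 and 5 and 0 in the double KD, and NRL, a retinal transcription factor, 65 and 5 with 27 in the double KD. The double KD thus followed the library labelled siPAPγ for some of these 8 genes and not for others.

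On the higher side, TP53INP1, a p53-inducible gene linked to autophagy, had 45 reads in siCtrl and 213 in the library labelled siPAPγ (4.40-fold, 3.17 to 6.21). Its levels were 5.59, 24.6, 7.54, 7.28 and 11.2 RPM in siCtrl, the library labelled siPAPγ, siPAPα, siStar-PAP and the double KD. BBS4, a component of the ciliary BBSome, had 12 and 62 reads (4.80-fold, 2.56 to 9.78) and 98 in the double KD. HLA-DMB stood at 3.48 RPM in siCtrl, 13.0 in the library labelled siPAPγ and 11.5 in the double KD, and the kinase gene NLK at 4.59, 12.8 and 10.01 RPM. KCNS3, a potassium channel subunit gene, rose from 42 reads to 218 (4.82-fold, 3.45 to 6.88). RAI14, NEDD9 and ABAT had 3.44-, 2.79- and 2.65-fold more than siCtrl, and RAI14 and ABAT in the double KD were at 2.02 and 4.04 RPM, close to 2.11 and 4.10 in siCtrl. Among the most-read genes of this set, chosen after their values were seen and led by EIF3L, CDKN1B, the gene of the cell cycle inhibitor p27, had 153 and 509 reads (3.09-fold, 2.57 to 3.73) and 46.7 RPM in the double KD against 19.0 in siCtrl. RBBP7, a histone-binding protein of chromatin complexes, had 507 and 1375 reads (2.52-fold, 2.27 to 2.79), but at 36.6 RPM in the double KD it was below the 62.9 of siCtrl. NSD1, a histone H3 methyltransferase gene, had 445 and 1216 reads (2.54-fold, 2.28 to 2.84) and 66.9 RPM in the double KD against 55.2 in siCtrl.

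**Figure D2:**
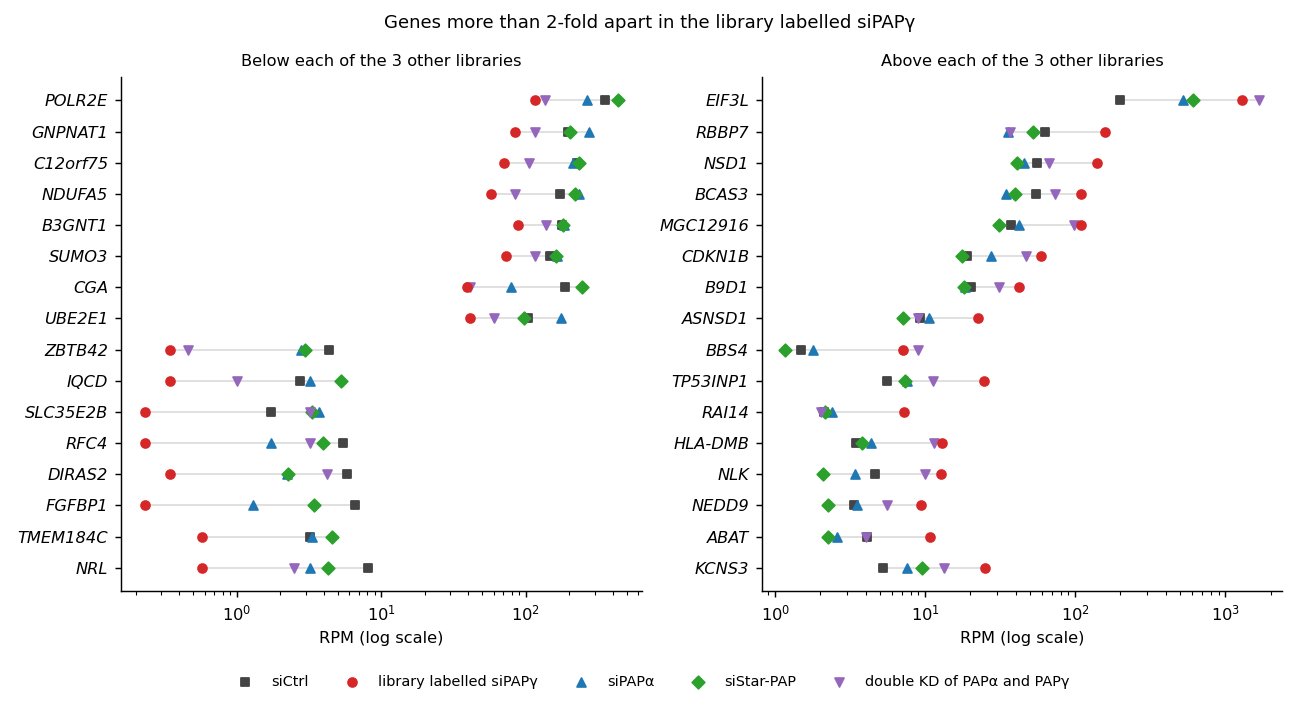
RPM on a log axis of genes more than 2-fold below (left) or above (right) each of siCtrl, siPAPα and siStar-PAP in the library labelled siPAPγ: on each side the 8 most-read genes, then the genes with the largest separation; 1 point per library, and 0 reads are not drawn. The double KD lies beside the library labelled siPAPγ for POLR2E (135 and 117 RPM) and NLK (10.01 and 12.8), but not for RBBP7 (36.6 and 159).

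The gene lists, 32 in all, are read against the background of 13.3% lower and 9.23% higher and the median log2 ratio of −0.06 over all tested genes. Of all 10163 tested genes, 5406 had a log2 ratio below 0 and 4757 above 0. Cytosolic ribosomal protein genes had the highest median, 0.46, with 55 of 74 tested members above 0. Of the 74, 9 were higher by more than 2-fold (12.2%) and 1, RPL27, was lower (1.35%). RPLP1, a protein of the ribosomal stalk and the most-read member, had 198475 reads in siCtrl and 448801 in the library labelled siPAPγ (2.10-fold, 2.09 to 2.11). RPS27A, a fusion of ubiquitin with a ribosomal protein, went from 728 to 2143 reads, and RPLP0 from 16 to 209. RPL13A (56 to 337 reads) shares a PAS with its copy RPL13AP5, and reads of genes with many processed copies are uncertain where the alignment kept unique matches. The list stood above siCtrl in all KD libraries, with medians of 0.72 in siPAPα, 0.52 in siStar-PAP and 0.54 in the double KD. Set against siPAPα the library labelled siPAPγ had a median of −0.23, and against siStar-PAP −0.08, so that its direction turned with the reference. Mitochondrial ribosomal protein genes had a median of 0.11 (71 tested, 2.82% lower and 4.23% higher). Subunits of oxidative phosphorylation had 0.12 (70 tested, 5.71% lower and 10% higher). Among these subunits ATP5G1 rose from 339 to 1744 reads (4.78-fold, 4.25 to 5.38), and NDUFB11 fell from 2155 to 521 (4.45-fold, 4.04 to 4.91). ATP5G1 had 204 RPM in siPAPα beside 201 in the library labelled siPAPγ, but 51.4 in siStar-PAP and 42.1 in siCtrl, whereas NDUFB11 was below the 267 of siCtrl in all 4 KD libraries, at 34.9 to 87.2.

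Mitotic cell cycle and DNA replication genes were read more deeply than most, with medians of 436 and 373 siCtrl reads beside 146 for all tested genes. Their shares past 2-fold are not set apart from that depth. By mean level over the 4 libraries, 20.3% of all tested genes were lower in the lowest quartile and 9.01% in the highest. The higher share of the mitotic genes was near the 9.23% of all genes. Of 23 tested mitotic genes none was lower and 2 were higher by more than 2-fold (8.70%), while 18 were above 0, with a median of 0.33. CENPF, a kinetochore protein gene, went from 122 to 271 reads, and CENPE, a kinetochore motor gene, from 3 to 52 (16.1-fold, 5.21 to 80.6), and these were the 2 past 2-fold. Against siPAPα and siStar-PAP the medians of the mitotic list were 0.08 and 0.36, beside 0.10 and 0.34 for all genes. Of 27 tested replication genes 2 were lower (7.41%) and 1 higher (3.70%) by more than 2-fold. TYMS, the gene of thymidylate synthase, had 72746 reads in siCtrl and 24536 in the library labelled siPAPγ (3.19-fold, 3.15 to 3.24), and RRM1, of ribonucleotide reductase, 1030 and 411. GINS1, a part of the replicative helicase, was higher, with 264 and 979 reads (3.44-fold, 3.00 to 3.96). TYMS stood at 2776, 3075 and 2077 RPM in siPAPα, siStar-PAP and the double KD, near the 2829 of the library labelled siPAPγ and below the 9029 of siCtrl.

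Replication-dependent histone genes, whose main transcripts carry no poly(A) tail, had the lowest median, −1.17. Of 47 listed members 9 were tested, and 5 of them were lower by more than 2-fold (55.6%). HIST1H2AG had 3409 reads in siCtrl and 859 in the library labelled siPAPγ (4.27-fold, 3.96 to 4.61), and HIST1H1C 602 and 172 (3.77-fold, 3.18 to 4.49). HIST1H2AE went from 130 to 36 reads, HIST1H2BD from 130 to 59 and HIST2H2BC from 109 to 52. The list was also low in siPAPα, siStar-PAP and the double KD, with medians of −1.73, −0.95 and −1.90. Against siPAPα the median of the library labelled siPAPγ was 0.75 and against siStar-PAP −0.15.

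Extracellular matrix genes had one of the lowest medians. Of 83 extracellular matrix genes 34 were tested, with a median of −0.62. Of the 34, 8 were lower by more than 2-fold (23.5%) and 3 higher (8.82%). TIMP2, an inhibitor of matrix metalloproteinases, had 1441 and 432 reads (3.59-fold, 3.22 to 4.01), and the basement membrane gene NID1 351 and 129 (2.93-fold, 2.39 to 3.61). COL4A1, COL5A1, FBLN5, HSPG2, LAMB1 and LAMC3 were the other lower ones. TIMP2 stood at 179 RPM in siCtrl, 49.8 in the library labelled siPAPγ, 35.5 in siPAPα and 48.0 in siStar-PAP. LAMC1 (1013 to 2411 reads), FBN1 and COL27A1 were higher. Among 18 tested genes of neuronal differentiation (median −0.45), the guidance cue SEMA3C fell from 320 to 86 reads, and EPHA4, HES1 and NOTCH1 fell by 2.47- to 2.76-fold. NEFM, SOX4 and SLIT2 were past 2-fold in the other direction. Against siPAPα and siStar-PAP the medians were 0.10 and 0.16 for the matrix list and 0.27 and 0.34 for the neuronal list, beside 0.10 and 0.34 for all genes. The matrix list was thus at the level of all genes against siPAPα and below it against siStar-PAP.

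Apoptosis regulators lay below all genes. Of 21 tested, 17 were below 0 (median −0.48), and the medians were −0.22 against siPAPα and 0.11 against siStar-PAP, where those of all genes were 0.10 and 0.34. Past 2-fold were 4 lower (19.0%) and 1 higher (4.76%), with BIK, a BH3-only protein gene and the most-read of the 4 lower ones, at 3493 and 1081 reads (3.48-fold, 3.25 to 3.73). BIK stood at 434 RPM in siCtrl, 125 in the library labelled siPAPγ, 69.5 in siPAPα, 115 in siStar-PAP and 61.1 in the double KD. HRK, CASP9 and BCL2L1 were the others, and BAD, another BH3-only gene, was higher (98 to 331 reads). Of 16 genes of the integrated stress response 12.5% were higher and 12.5% lower. SESN2 (6117 to 19954 reads, 3.03-fold, 2.94 to 3.12) and MTHFD2 were higher, and PPP1R15A (2457 to 1128) and ASNS were lower. SESN2 stood at 759 RPM in siCtrl, 2300.3 in the library labelled siPAPγ, 1454 in siPAPα and 2799.96 in siStar-PAP. Of 12 immediate early genes 9 were below 0, with a median of −0.47. FOSL1 and IER3 were lower by more than 2-fold (16.7%) and SRF higher (8.33%). Against siPAPα their median was −0.06 and against siStar-PAP 0.29. BTG2, an antiproliferative gene counted among the deadenylase partners and the p53 targets, had 2.73 RPM in siCtrl, 14.5 in the library labelled siPAPγ (5.32-fold, 3.36 to 8.79), 6.36 in siPAPα, 0.450 in siStar-PAP and 10.2 in the double KD. Of 13 p53 targets only BTG2 was higher by more than 2-fold (7.69%) and only PLK3 lower (7.69%). Heat shock genes had a median of 0.21 (20 tested, 10% lower and 5% higher). Interferon response genes had −0.25 (12 tested, 16.7% lower and 8.33% higher).

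Among the genes of 3′ end processing itself, 4 of 19 tested cleavage and polyadenylation factors passed 2-fold, 2 in each direction (10.5%). These shares were near the 13.3% lower and 9.23% higher of all tested genes. CSTF1, a subunit of the cleavage stimulation factor, had 1163 and 3443 reads (2.75-fold, 2.57 to 2.94) and CPSF1, which encodes the largest CPSF subunit, 144 and 396 (2.55-fold, 2.11 to 3.11). CPSF3, the endonuclease, had 1545 and 739 (2.25-fold lower, 2.06 to 2.46), and the scaffold gene SYMPK 186 and 77 (2.60-fold lower, 1.98 to 3.44). In siPAPα, CPSF3, SYMPK and CSTF1 stood at 60.1, 3.58 and 433 RPM, against 192, 23.1 and 144 in siCtrl. CPSF1 stood at 7.82 RPM in siStar-PAP and 17.9 in siCtrl. Among the other polymerases and uridylyltransferases PAPD5, a noncanonical poly(A) polymerase, was lower, with 146 and 47 reads (3.34-fold, 2.39 to 4.75). Of 15 tested exosome genes 13 were below 0, beside 5406 of all 10163 tested genes. Past 2-fold 3 were lower (20%) and none higher: EXOSC4 (3508 to 1248 reads), EXOSC7 (450 to 186) and ZCCHC8 (219 to 93). EXOSC4 stood at 435 RPM in siCtrl, 144 in the library labelled siPAPγ, 118 in siPAPα and 316 in siStar-PAP. Of 16 deadenylases and their partners 4 were lower (25%), namely BTG1, BTG3, CNOT3 and TNKS1BP1. BTG2, CNOT10 and PAN2 were higher (18.8%). Of 8 poly(A) binding proteins and partners PAIP2B was lower (12.5%) and LARP1 higher (12.5%).

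The other lists had medians between −0.33 and 0.10. Cholesterol synthesis genes had a median of −0.33, with HMGCS1 and MVD among the lower and LSS and DHCR7 higher. Proteasome genes had −0.13, with PSMD9 (7844 to 1807 reads, 4.67-fold, 4.44 to 4.92), PSMB3 and PSMB10 lower and PSMB6 (3340 to 10410), PSMD6, PSMD11 and PSMA4 higher. PSMD9 stood at 974 RPM in siCtrl and between 162 and 209 in all 4 KD libraries, and PSMB6 at 415 and between 1113 and 1261. Translation factors had 0.04, with EIF3L, EIF4G1, EIF5B and EIF2B1 higher and EIF5A lower. SR and hnRNP splicing factors had −0.01, with 4 in each direction (12.5%), HNRNPC among the higher (358 to 1065 reads). The medians were 0.05 for aminoacyl-tRNA synthetases, 0.10 for ribosome biogenesis, 0.07 for snoRNA host genes and 0.07 for glycolysis. They were 0.08 for the citrate cycle and −0.05 for the microRNA pathway. For 324 ZNF zinc finger genes the median was 0.01, with 30 lower (9.26%) and 31 higher (9.57%).

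**Figure D3:**
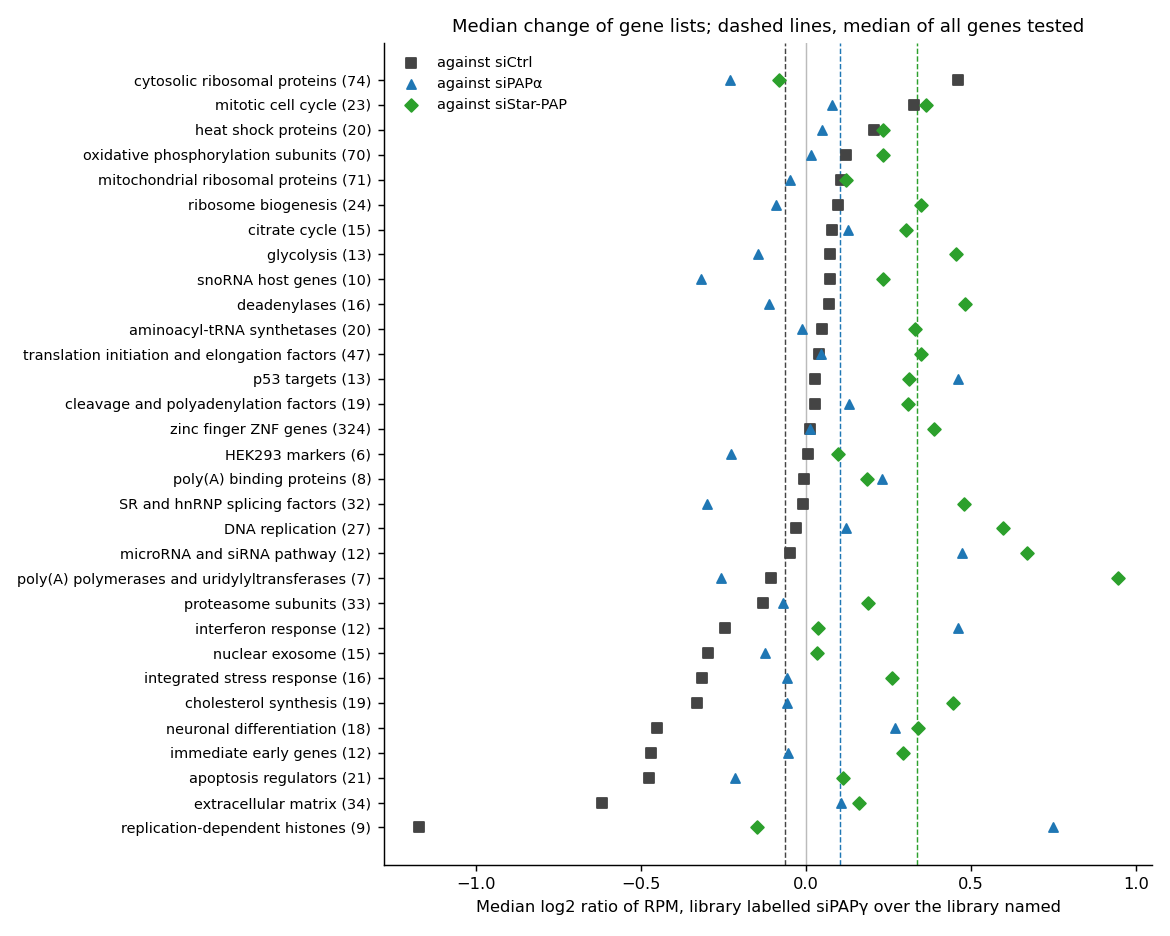
Median log2 ratio of RPM of each gene list (number of tested members in parentheses) in the library labelled siPAPγ over siCtrl (squares), siPAPα (triangles) and siStar-PAP (diamonds); dashed lines in the same colours are the medians of all tested genes, −0.06, 0.10 and 0.34. Cytosolic ribosomal proteins and replication-dependent histones are the ends of the order against siCtrl, at 0.46 and −1.17, and stand at −0.23 and 0.75 against siPAPα.

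Gene class and length made little difference. The median was −0.06 for 9947 mRNA genes and −0.07 for 216 noncoding RNA genes, of which 17.1% were lower and 10.6% higher by more than 2-fold. By the span of the gene (8950 genes matched to the annotation), the quartiles had medians of −0.06, −0.05, −0.06 and −0.06 from short to long. By the mean level over the 4 libraries the lowest quartile had a median of −0.22 and the highest 0.05. With the level taken from the siCtrl library of batch 2, which is in no ratio here, they were −0.05 and −0.04, and with the level from the same siCtrl 0.19 and −0.13, so that a trend with level depended on the library that set the level.

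Per PAS, 12862 sense PASs had more than 50 reads over both libraries. Of these 2098 were lower by more than 2-fold (16.3%) and 1604 higher (12.5%), with a median of −0.04, and the excess of lower PASs depended on the scaling. With the study's totals as depth 3016 were lower and 1048 higher, with TMM factors 1835 and 1880, and with DESeq2 size factors 1785 and 1891. PASs in introns stood out among the types. Of 974 tested intronic PASs 262 were lower (26.9%) and 97 higher (9.96%), with a median of −0.34, whereas the 11803 PASs of 3′-most exons had 15.4% lower and 12.7% higher and a median of −0.02. Of 85 tested PASs in upstream exons 22.4% were lower and 15.3% higher. Introns held 4.58% of the sense reads in siCtrl (4.57 to 4.60) and 3.81% in the library labelled siPAPγ (3.80 to 3.82), 3.45% in siPAPα and 4.76% in siStar-PAP. Against the same siCtrl, the median of intronic PASs was −0.80 in siPAPα, beside −0.13 for PASs of 3′-most exons. In siStar-PAP these medians were −0.57 and −0.42, so that its introns lay closest to its 3′-most exons. Set directly against siPAPα, the library labelled siPAPγ had a median of 0.47 at intronic and 0.12 at 3′-most exon PASs, and against siStar-PAP 0.22 and 0.39. By these medians intronic PASs were lower relative to the other PASs against siCtrl and siStar-PAP and higher against siPAPα. The filter of more than 50 reads counts only siCtrl and the library labelled siPAPγ. It lets in PASs that are high in either, most of all where reads are few. It thus leans on every ratio that involves siPAPα or siStar-PAP, and these medians are given as a description. Reads per intronic PAS were fewer (median 109 over both libraries, against 210 in 3′-most exons). For 844 intronic PASs with a matched gene start, the quartiles of distance from it had medians of −0.33, −0.32, −0.40 and −0.15, from near to far.

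Classes by position within the 3′-most exon, and by signal over all PASs, differed less than introns did from 3′-most exons. The first PASs had a median of −0.03 with 15.2% lower and 11.2% higher, and the last PASs of 0.00 with 15.7% and 14.8%. PASs that are the only ones of their 3′-most exon had 14.1% and 10.6%, and middle ones 16.6% and 14.2%. By hexamer, over all tested PASs with introns included, 15.5% of PASs with AAUAAA were lower and 12.6% higher, and 15.9% and 12.4% of those with AUUAAA only. PASs with none of the hexamers had 20% lower and 12.9% higher, with a median of −0.10, and a lower read number (median 141 against 224 with AAUAAA). Among PASs of 3′-most exons alone, 14.6% with AAUAAA were lower and 12.8% higher, against 18.9% and 12.5% with none of the hexamers. The share of all sense reads at PASs with AAUAAA was 72.03% in siCtrl, 74.2% in the library labelled siPAPγ, 75.1% in siPAPα and 75.6% in siStar-PAP. This pooled share weighs abundant genes most. Cytosolic ribosomal protein genes alone summed to 74579 RPM in siCtrl and 117396 in the library labelled siPAPγ. Within genes that have at least 2 PASs, the mean share of a PAS with AAUAAA was 31.1% and 31.3% in these 2 libraries. PASs with UGUA in the bases 100 to 41 upstream and those without it had medians of −0.03 and −0.05. By GC content of the 100 bases on each side, 14.9% of the PASs were lower in the most AU-rich quartile and 18.7% in the most GC-rich, and 13.3% and 11.2% higher.

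**Figure D4:**
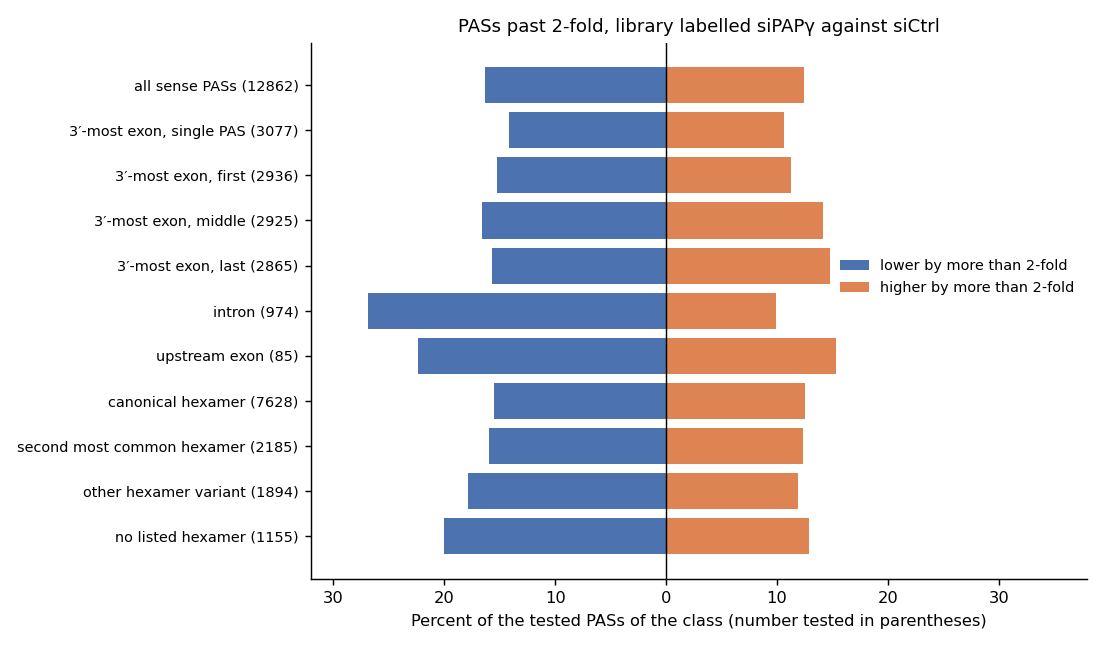
Percent of the tested PASs of each class that were lower (left of 0) or higher (right of 0) by more than 2-fold in the library labelled siPAPγ against siCtrl, by position in the gene and by the hexamer upstream. Intronic PASs have the largest lower share, 26.9%, beside 16.3% for all PASs.

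Within genes, shares of reads were compared, which sum to 100% in a gene, so that falls and rises balance by construction. In 5264 genes with at least 2 PASs and at least 50 reads in each library, 21514 PASs were compared. The share of the reads of the gene fell by at least 10 percentage points at 2442 (11.4%) and rose by as much at 2485 (11.6%), and 2623 genes (49.8%) had such a PAS. Among intronic PASs 511 fell (11.3%) and 301 rose (6.68%), and their mean share was 12.0% in siCtrl, 10.7% in the library labelled siPAPγ, 9.83% in siPAPα and 12.8% in siStar-PAP. The last PASs of 3′-most exons fell at 507 and rose at 627 of 4612, and the first fell at 539 and rose at 565. For the 2 most-read PASs of a 3′-most exon, in 5590 genes with at least 20 reads at the pair in each library, the ratio of distal to proximal reads rose by more than 2-fold in 1506 (26.9%) and fell in 1409 (25.2%). Its median log2 change was 0.05, beside 0.22 in siPAPα and 0.04 in siStar-PAP. In the quartile of pairs farthest apart, with a median spacing of 3531 nt, 31.0% shifted to the distal PAS and 27.8% to the proximal.

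Use of PASs upstream of the 3′-most exon was lower more often than higher. In 2121 genes with reads in both regions, the ratio of upstream to 3′-most exon reads was lower by more than 2-fold in 814 (38.4%) and higher in 471 (22.2%). Among 1356 of these with at least 20 upstream reads the numbers were 459 (33.8%) and 226 (16.7%). The mean share of upstream reads per gene was 25.3% in siCtrl, 22.4% in the library labelled siPAPγ, 20.3% in siPAPα and 26.6% in siStar-PAP. The largest fall was in MOV10, an RNA helicase gene, from 59.0% (51.8 to 65.9) to 6.29% (2.92 to 11.6), with 14.5% in siPAPα and 49.8% in siStar-PAP. MAGT1, a magnesium transporter gene, went from 60.4% to 14.9%, with 19.6% in siPAPα and 22.0% in siStar-PAP, C7orf73 from 55.2% to 11.3%, with 7.63% and 12.2%, and NADSYN1, which makes NAD, from 72.9% to 29.6%. NADSYN1 had 35.2% in siPAPα and 75.2% in siStar-PAP. The largest rises were in NPM1, PBX2, ASCC3 (6.31% to 50.3%), TFDP1 (22.8% to 64.5%), TERF2 (49.7% to 86.0%) and GPR75-ASB3 (10.0% to 44.6%). For ASCC3 the share was 20.7% in siPAPα and 22.1% in siStar-PAP, and for TFDP1 26.03% and 52.6%.

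The single PASs with the largest shifts lay in introns and in 3′-most exons alike. NPM1, the gene of nucleophosmin, had 79 of 687 reads (11.5%, 9.21 to 14.1) at an intronic PAS (hg19 chromosome 5, position 170833731, plus strand) in siCtrl and 757 of 1096 (69.1%, 66.2 to 71.8) in the library labelled siPAPγ, with 63.6% in siPAPα and 48.7% in siStar-PAP. Its PAS in the 3′-most exon, at 170837904, held the rest, and both have AAUAAA as shown above. ADCY3, an adenylyl cyclase gene, shifted within its 3′-most exon from the first PAS (93.2% to 39.6%), whose hexamer is AAUACA, to the last (6.81% to 60.4%), with AUUAAA. The last PAS of ADCY3 held 64.4% in siPAPα and 11.9% in siStar-PAP. CKS1B, a cyclin-dependent kinase subunit, shifted the other way, with its last PAS at 84.7% (77.5 to 90.3) in siCtrl and 36.0% (28.0 to 44.7) in the library labelled siPAPγ.

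RAB31, a small GTPase of vesicle traffic, moved from an intronic PAS (67.0% to 18.9%) to the last PAS of its 3′-most exon (27.1% to 74.1%). NID1, which was lower as a whole gene, lost its intronic PAS at 236209353 on chromosome 1, from 309 of 351 reads (88.0%) to 41 of 129 (31.8%). At the last PAS of NID1 the reads rose from 12 to 45, so that the fall of the gene lay at the intronic PAS. GLI3, a transcription factor of hedgehog signalling, had 113 of 207 reads (54.6%) at an intronic PAS in siCtrl and 7 of 106 (6.60%) in the library labelled siPAPγ, with 31.5% in both siPAPα and siStar-PAP. CDKN2AIPNL went from 98.7% to 48.8% at an intronic PAS. EXD3 rose from 16.0% to 76.6% at an intronic PAS, and PBX2 from 8.85% to 53.9%, with 49.0% in siPAPα and 55.6% in siStar-PAP. GNL3L gained a middle PAS, from 2 of 200 reads to 160 of 318 (50.3%), with 57.3% in siPAPα and 3.65% in siStar-PAP, and a PAS 50 nt upstream of it went from 17.5% to 4.09%. RNF139, SREK1 and NADSYN1 gained a PAS of the 3′-most exon by 45.7, 45.6 and 43.3 points, and EIF2S3 and PBX2 lost PASs there by 48.5 and 46.4 points. None of the hexamers was found before the gained PASs of GNL3L and PBX2 or the lost PAS of EIF2S3.

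**Figure D5:**
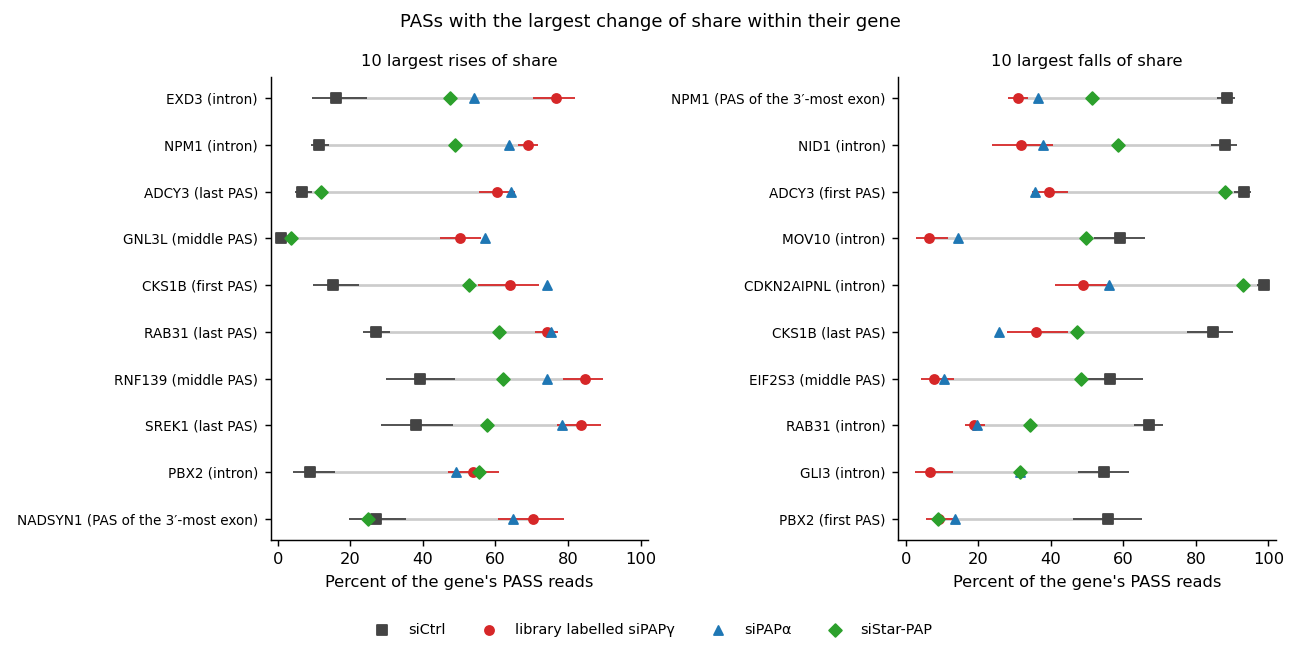
Percent of the PASS reads of the gene at the 10 PASs with the largest rise (left) and the 10 with the largest fall (right) of share in the library labelled siPAPγ against siCtrl, with exact 95% counting intervals as lines for these 2 libraries. The PASs were chosen for the distance between siCtrl and the library labelled siPAPγ, as at the intronic PAS of NPM1, 11.5% against 69.1%. siStar-PAP lies close to siCtrl for ADCY3, GNL3L and NADSYN1.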

How the data were processed

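Total RNA of HEK293 cells was sequenced by 3′READS. Per the submitters' processing notes and the study's methods, alignment by the authors used Bowtie2 and hg19, and the counts they deposited are uniquely aligned PASS reads per clustered PAS of RefSeq genes, not normalized and not pooled. Sense rows were summed per gene, scaled by the column's sense total (RPM) and compared as ratios, with no pseudocount. Changes were called past 2-fold, for genes or PASs with more than 50 reads over both libraries. Reads per library were 8057201 (siCtrl) and 8674435 (labelled siPAPγ), and 1 library a side allows no test. Intervals are Clopper-Pearson at 95%. Alternative scalings used TMM of edgeR 4.0.16 and size factors of DESeq2 1.42.0 in R 4.3.3, and the rest used Python 3.11.15. Sequence came from GRCh37, and gene spans from GENCODE lifted to it. The code that makes the calls was run on simulated counts, with planted changes larger than 2-fold and counting error only. This does not measure how reliable the calls in the data are.

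Named genes are the PAP genes, the 15 largest falls and rises with at least 100 reads over both libraries, the 8 falls and 8 rises with the largest separation from 3 other libraries, the most-read and most extreme members of lists, and the PASs and genes with the largest shifts of share. Further genes named in the text were chosen after their values were seen. Members and lists were chosen with earlier results of these data known. Some items of the table are not reported here.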

Additional observations from a re-analysis of the deposited data

How the results depend on the processing

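No paired analysis was possible because each group holds 1 library, and for the same reason no replicate could be left out. The number of genes past 2-fold was 2288, and it was 5335 with no filter, 1225 with more than 200 reads, 4658 at a fold above 1.5, 374 at a fold above 4 and 885 with the mean of siStar-PAP and siPAPα as the reference. The number of PASs past 2-fold was 3702, with 1502 at more than 200 reads and 764 at a fold above 4. Shifts of PAS share numbered 4927, and 1448 at 20 points or more, 1306 with at least 200 reads and 3024 against the mean of siStar-PAP and siPAPα. Shifts between 3′-most exon PASs numbered 2915, and 1078 with at least 100 reads. Shifts of the upstream region numbered 1285, and 279 with at least 200 reads. Fewer or more features tested, or another threshold, set these counts by construction, except with the other reference, where the cause was not tested. The difference in median log2 ratio between the highest and lowest quartile of level was 0.27, but 0.012 with levels from siCtrl of batch 2 and −0.32 with those of the same siCtrl. The other 16 alternatives, among them the scalings, antisense rows, an added read and the merging of PASs within 50 nt, kept the total of both directions within 1.5 times and PAPOLG within its counting interval. By direction, the study's totals moved lower genes from 1350 to 2105, higher genes from 938 to 576 and higher PASs from 1604 to 1048.

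The scalings moved the split of genes: 21.5% of calls were higher with the study's totals, 41% with table totals, 48.9% with TMM and 50.0% with DESeq2. Of the called PASs, 25.8%, 43.3%, 50.6% and 51.4% were higher in that order. Without replicates, spread between transfections is unknown, and at 5 and 15 reads the RNA of PAPOLG could not show a KD.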
